A study of Mus musculus with 145 samples.

Results

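Insertions of a piggyBac transposon were followed in a single gene, Zbtb20, in DNA of mouse mammary tumours. The gene region runs from 42873893 to 43727234 on chromosome 16 (chr16:42873893-43727234, build mm10, plus strand, gene identifier 56490) and is 1 of 13391 gene regions in the authors' deposited table. Every deposited insertion site inside it was taken, which gave 132 of 198107 sites. A tumour was called hit when a site had 10 or more reads in its library. Where several libraries had reads at the same position and strand, the site was assigned to whichever tumour had most. By this rule 49 tumours from 31 mice, of 94 untreated and 51 resistant tumours in all, were hit, and they held 81 sites, called kept sites below. The gene was chosen because of how often it was hit in these same tumours, so shares of tumours hit and read ranks are given as descriptions with no test.

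ZBTB20 is a transcriptional repressor with an N-terminal BTB domain, through which such proteins pair, and C-terminal zinc fingers that bind DNA. In mice it silences alpha-fetoprotein in the liver after birth, shapes hippocampal neurons, and is needed for the prolactin-producing cells of the pituitary. Prolactin is the hormone that drives milk production in the mammary gland. The piggyBac transposase inserts at TTAA, and the ATP1 transposon carries elements that can activate or truncate a gene, depending on where and in which orientation it lands.

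All mice of both groups carried WAP-Cre together with LSL-PB, LSL-PIK3CA(H1047R) and ATP1. In these animals Cre under the WAP promoter, which turns on in mammary cells late in pregnancy, released the piggyBac transposase and PIK3CA(H1047R), an activated catalytic subunit of PI3K alpha. Untreated tumours numbered 94, from 23 mice, and 51 tumours from 25 mice were classified as resistant to BYL719, an inhibitor of PI3K alpha. Resistant tumours had reached 250 mm3, were dosed daily with 30 mg/kg and grew over at least 3 consecutive measurements within 3 weeks. Tumours are named by group and a number within the group, and tumours of 1 mouse are not independent samples. The 94 untreated samples are libraries, since untreated 88 has the mouse and gland of untreated 58 with a suffix R2 in its title, and both were counted. Neither was hit in Zbtb20, and without untreated 88 the share of untreated tumours hit was 27.96%. Ages are not given in the labels, and insertion data from DNA hold no expression by which the tissue label could be checked.

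The most-read sites of each group are shown with the 8 bases that the deposited site table gives for each, read on the strand of the site, because these letters place an insertion at its target. Capitals mark the TTAA. The position of a site is the base that follows the TTAA. All 10 sites shown carry it.
resistant 48, chr16:43550251-43550258, strand minus: TTAAtaaa
resistant 35, chr16:43466575-43466582, strand plus: TTAAagga
resistant 35, chr16:43472085-43472092, strand plus: TTAAacac
resistant 48, chr16:43042914-43042921, strand minus: TTAAgaag
resistant 35, chr16:43333048-43333055, strand plus: TTAAaaat
untreated 56, chr16:42939590-42939597, strand plus: TTAAtatt
untreated 1, chr16:43385755-43385762, strand minus: TTAAtaca
untreated 2, chr16:43246875-43246882, strand minus: TTAAttat
untreated 33, chr16:43027274-43027281, strand minus: TTAAgtga
untreated 56, chr16:43235297-43235304, strand minus: TTAAcaaa

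Of the kept sites, 79 of 81 lay at TTAA (97.5%, Clopper-Pearson 95% interval 91.4 to 99.7). Sites of 1 to 9 reads did so in 38 of 47 cases (80.9%, 66.7 to 90.9), and sites with a single read in 10 of 19 (52.6%, 28.9 to 75.6). Across all deposited sites the share was 84.7%. The share at the piggyBac target was highest among kept sites and lowest among sites of a single read, and these shares were not tested against each other. Most kept sites belonged to a single library (52 of 81), and 29 also had reads in at least 1 other library. In 8 of these another library came from the same mouse, in 25 from another mouse, and in 0 from the other treatment group. No such count is given for the rest of the series, so the 0 is not shown to be particular to Zbtb20. Another library reached 10 reads at only 2 of the 29 sites. At the site 598 kb into the region, where resistant 35 had 1046 reads, resistant 26, a tumour of another mouse, had 686. At the site 65.7 kb into the region, where untreated 56 had 789 reads, untreated 29 had 19. The first of these decided whether resistant 26 counted as hit, so that 24 rather than 23 resistant tumours were hit when shared positions stayed in every library, against 26 untreated tumours either way.

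The insertions were spread along the gene. Kept sites ran from 0.657 to 757 kb of the 853 kb region, with a median of 408 kb in resistant tumours (39 sites) and 424 kb in untreated tumours (42 sites). RefSeq (GRCm38.p6, the assembly behind mm10) places the gene at 42875689 to 43634392 and 1 of its starts at 43247284, which is 373 kb into the region. The longest stretch without a kept site was 48.4 kb, from 296 to 344 kb. The last 96.5 kb held no kept site, and the RefSeq gene ends within 4 kb of where that stretch begins, at 760 kb. In all, 80 of the 81 kept sites lay between the ends of the RefSeq gene. The exception lay in the overlap with 4932412D23Rik, a non-coding RNA gene. Another 2 kept sites also lay in the non-coding RNA gene Gm19522 and 1 in Tigit, which encodes an immune checkpoint receptor, and none lay in the microRNA gene Mir568. No gene models were used here, so exons and introns were not assigned.

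**Figure D1:**
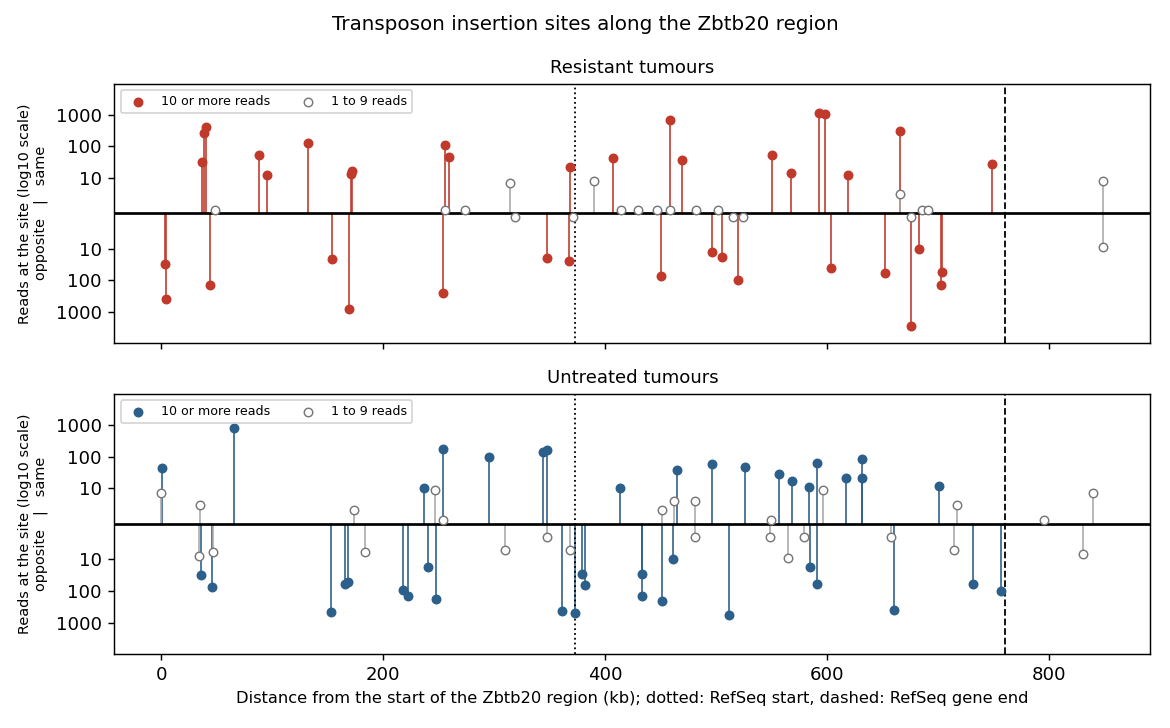
Insertion sites along the Zbtb20 region in resistant (top) and untreated (bottom) tumours, with distance from the start of the region in kb and reads at the site on a log10 scale, drawn upwards for sites on the strand of the gene and downwards for the others. Filled points are kept sites of 10 or more reads and open points are sites of 1 to 9 reads. Sites of both groups and both orientations are spread from the start of the region to 757 kb, and only open points lie beyond the dashed line at the RefSeq gene end.

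Single windows held few tumours. Of 86 windows of 10 kb, 44 held a kept site, 11 were hit in at least 3 tumours, and the highest number was 4 tumours, at 250 to 260 kb (chr16:43123893-43133892), where 3 were resistant and 1 untreated, from 3 mice. The other 10 windows with 3 tumours lay at 0, 30, 40, 160, 340, 360, 450, 460, 590 and 700 kb, and each held tumours of both groups. In windows of 50 kb, the first held sites of 6 resistant tumours (11.8% of 51) and of 3 untreated ones (3.19% of 94). The window from 650 to 700 kb had sites of 4 resistant tumours (7.84%) and of a single untreated one (1.06%). From 200 to 250 kb there were 0 resistant and 5 untreated tumours (5.32%), the latter from 4 mice. The window from 550 to 600 kb was hit in 3 resistant (5.88%) and 6 untreated tumours (6.38%), and 8 of its 10 sites lay on the strand of the gene. These windows were picked out after their values were seen, and none was tested.

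**Figure D2:**
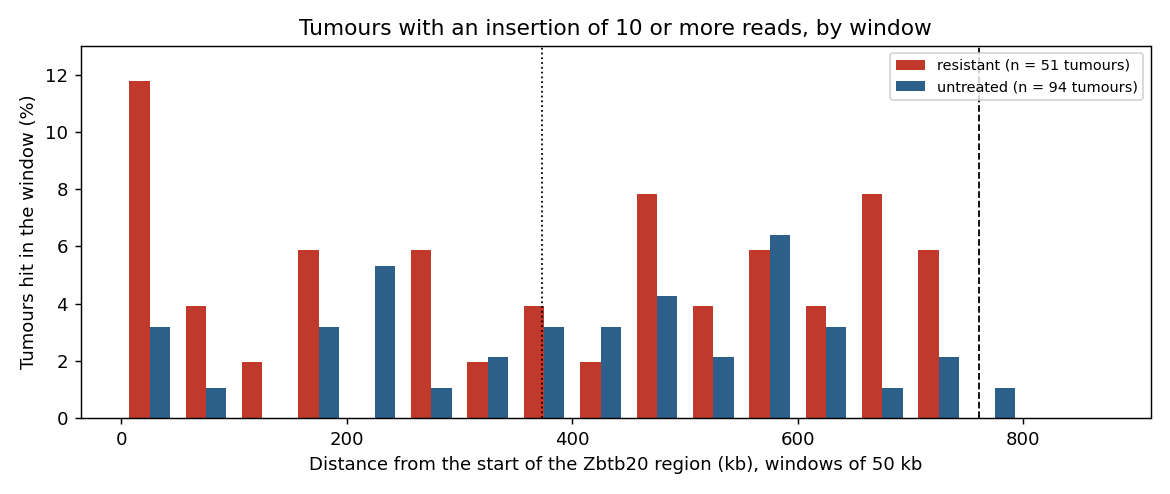
Percent of the tumours of each group with a kept site in each window of 50 kb along the Zbtb20 region, with the bars of both groups side by side inside their window, a dotted line at the RefSeq start and a dashed line at the RefSeq gene end. The first window has 11.8% of resistant and 3.19% of untreated tumours, and no bar passes that height.

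Positions of the groups overlapped widely when tumours were compared. The median position of a tumour's kept sites was 361 ± 227 kb from the start of the region in resistant tumours (SD, n = 23) and 394 ± 185 kb in untreated tumours (SD, n = 26). The difference of -33.5 kb was small beside the spread between tumours (two-sided permutation test of the treatment label over 31 mice, p = 0.554, adjusted p = 0.704 over the 4 permutation tests made on Zbtb20). Sites before the RefSeq start numbered 19 of 39 in resistant tumours (48.7%, 32.4 to 65.2) and 18 of 42 in untreated tumours (42.9%, 27.7 to 59).

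The promoter around the RefSeq start is shown because the untreated 2 site in the list above lies just before it. RefSeq (GRCm38.p6) gives 250 bases before and 50 bases from the start, chr16:43247034-43247333 on the plus strand, with the TTAA motif in capitals.
Zbtb20 promoter: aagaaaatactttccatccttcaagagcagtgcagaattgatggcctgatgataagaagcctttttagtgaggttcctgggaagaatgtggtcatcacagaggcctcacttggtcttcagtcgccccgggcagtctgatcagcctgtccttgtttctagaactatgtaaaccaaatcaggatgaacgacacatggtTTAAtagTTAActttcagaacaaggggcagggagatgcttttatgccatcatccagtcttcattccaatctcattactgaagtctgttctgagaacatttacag
The window held the letters TTAA, which read the same on both strands, at 2 places, and 0 deposited sites. Of 32851 promoters of the same length in the RefSeq table, 52.4% held TTAA, with a median of 1 per promoter. The nearest kept site lay 406 bp before the start on the opposite strand, had 491 reads in untreated 2 and ranked 360th among the sites of that library.

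Orientation was close to even. In the whole region 40 of 81 kept sites lay on the strand of the gene (49.4%, 38.1 to 60.7), with 21 of 39 in resistant tumours (53.8%, 37.2 to 69.9) and 19 of 42 in untreated tumours (45.2%, 29.8 to 61.3). Orientation is that of the strand in the deposited site table, and the headers do not say which end of the transposon that strand refers to. Before the RefSeq start, 11 of 19 resistant and 7 of 18 untreated sites lay on the strand of the gene, and after it 10 of 20 and 12 of 24 did. By tumour, 20 of the 49 held only sites on the strand of the gene, 21 held only sites against it, and 8 held both. The mean share of a tumour's sites on the strand of the gene was 55.1 ± 46.7% in resistant tumours (SD, n = 23) and 41 ± 46.2% in untreated tumours (SD, n = 26). The difference of 14.1 percentage points did not pass the test (two-sided permutation over 31 mice, p = 0.221, adjusted p = 0.687).

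Each tumour was also reduced to its most-read Zbtb20 site, so that tumours with several sites counted as 1. That site lay on the strand of the gene in 23 of 49 tumours, 12 of 23 resistant and 11 of 26 untreated. An exact binomial test against an even split gave an adjusted p of 1 (unadjusted p = 0.775), with Benjamini-Hochberg adjustment over 725 gene regions of known strand hit in at least 10 tumours. Of these 725 regions, 3 were called (0.414%), all on chromosome 10. They were Adgrg6, Arfgef3 and Eya4, named after their values were seen. Zbtb20 was not among the 27 regions (3.72%) with an unadjusted p under 0.05. The binomial test took tumours as independent, although the 49 hit in Zbtb20 came from 31 mice.

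Sites with many and few reads were compared inside the same tumour, where both share library and depth. In 16 tumours with both kinds, 60.5 ± 44.1% of the sites of 10 or more reads and 74.5 ± 42.5% of the sites of 1 to 9 reads lay on the strand of the gene (SD, n = 16 tumours). Averaged over 14 mice, the former minus the latter came to -12.4 percentage points, which did not pass (two-sided sign-flip permutation, p = 0.344, adjusted p = 0.687). It did pass before adjustment when the untreated mouse with 7 tumours (untreated 28 to 34), 3 of them hit, was left out (-21.0 percentage points, permutation p = 0.0460). Of these tumours only untreated 28 had both kinds of site, with 1 site of 7 reads against the gene and 2 kept sites on its strand. Median position was 462 ± 152 kb for the sites with more reads and 430 ± 231 kb for the others (SD, n = 16), a mean difference over mice of 28.7 kb (permutation p = 0.704, adjusted p = 0.704). Of the 47 sites of 1 to 9 reads, 4 lay within 10 bp of a kept site of the same tumour and strand. Each had 1 read, lay outside TTAA and was the only site of 1 to 9 reads in its tumour. Those tumours were untreated 13, resistant 4, resistant 35 and resistant 48. In these 4 of the 16 the side with few reads repeated the place of a kept site. Counting sites at TTAA only leaves out these 4 and all others outside TTAA, among them the only site of 1 to 9 reads in resistant 18. In that setting orientation differed by -9.83 percentage points (sign-flip permutation over 10 mice, p = 0.561). Position differed by 56.1 kb (sign-flip permutation, p = 0.585). At 2 places the same TTAA had reads on both strands. At 452 kb these were untreated 5 on the minus strand (210 reads) and untreated 12 on the plus strand (2 reads). At 849 kb both belonged to resistant 10, with 9 reads on the minus strand and 8 on the plus strand.

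A larger share of resistant than of untreated tumours was hit, and shares also differed between the forms of library title within each group. The resistant group had 23 hit tumours of 51 (45.1%, 31.1 to 59.7). The untreated group had 26 hit tumours of 94 (27.7%, 18.9 to 37.8). These intervals, like those by form of title below, took tumours as independent, which tumours of 1 mouse are not. By mouse the order was the other way, with 15 of 25 resistant mice (60%, 38.7 to 78.9) and 16 of 23 untreated mice (69.6%, 47.1 to 86.8) having at least 1 hit tumour. Untreated mice gave a median of 4 tumours and resistant mice a median of 2. The mean share of a mouse's tumours that were hit was 43 ± 42.3% in resistant mice (SD, n = 25) and 31.5 ± 29.8% in untreated mice (SD, n = 23). Several tumours were hit in 13 mice, 6 resistant and 7 untreated. The most in 1 mouse was 4, all the tumours of an untreated mouse (untreated 20 to 23). Other mice of both groups also had every tumour hit, among them those of resistant 1 to 3, resistant 8 to 10, and untreated 1 and 2. A higher percent in the resistant group was common in these data. Of 2558 gene regions hit in at least 5 tumours, 1358 (53.1%) had it, and of 186 regions outside chromosome 10 hit in 20 or more tumours, 113 (60.8%) did. Chromosome 10 held 20.9% of all kept sites of the series and was left out of the comparisons with regions of like length and of the Jaccard index.

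Titles in the deposit came in 4 forms, and no form held both groups, so that form and treatment cannot be told apart. Among untreated tumours, 25 of 61 with the form TgTum were hit (41%, 28.6 to 54.3) and 1 of 33 with the form tgTum (3.03%, 0.0767 to 15.8). Among resistant tumours, 19 of 35 with the form Tgtumor were hit (54.3%, 36.6 to 71.2) and 4 of 16 with the form Mouse (25%, 7.27 to 52.4). The forms with few hits also listed fewer sites. The median number of sites of 10 or more reads per tumour was 730 for TgTum, 258 for tgTum, 637 for Tgtumor and 241.5 for Mouse. Set against all such sites outside chromosome 10, Zbtb20 sites made up 0.126% in resistant tumours (39 of 30893, 0.0898 to 0.173) and 0.0857% in untreated tumours (42 of 49035, 0.0617 to 0.116), and these intervals overlap. They cover counting only, since reads made by PCR without molecular identifiers are not independent molecules and sites of 1 tumour share their source. By form these shares were 0.0970% for TgTum (41 of 42253, 0.0696 to 0.132) and 0.0147% for tgTum (1 of 6782, 0.000373 to 0.0821). They were 0.121% for Tgtumor (33 of 27376, 0.0830 to 0.169) and 0.171% for Mouse (6 of 3517, 0.0626 to 0.371). By body position, 18 of 38 resistant and 16 of 54 untreated tumours of glands 1 to 3 were hit, and 5 of 13 and 10 of 40 of glands 4 and 5.

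Tumours hit had longer site lists in both groups, while their library reads were higher chiefly in the untreated group. Libraries held 51 to 1604365 reads with a median of 63285, and the median was 136932 for resistant and 48339 for untreated tumours. Hit tumours had a median of 739 sites of 10 or more reads (resistant) and 1125.5 (untreated), against 358.5 and 349.5 in tumours that were not hit. Their median library reads were 136932 (resistant) and 87670.5 (untreated), against 129872 and 28784.5 in tumours that were not hit. In the resistant group the means were the other way, at 190304 reads in hit tumours and 271056 in the others. Of tumours with under 200 such sites, 0 of 9 resistant and 1 of 20 untreated were hit, and of those with 1000 or more, 9 of 12 and 16 of 21 were. The part of depth or of site number in the difference between groups was not tested.

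The authors' deposited table counts more Zbtb20 insertions than the rule above. It gives 50 insertions in 30 resistant tumours (58.82%), 30 of them on the strand of the gene and 20 against it. For the untreated group, the authors' deposited table gives 65 insertions in 48 tumours (51.06%), 29 on the strand of the gene and 36 against it. The same authors' deposited table scores the region as a common integration site at 3.66 for the resistant and 2.55 for the untreated group, in signed -log10 p-values whose method is not stated. With sites of any read number counted, each still assigned to the tumour with most reads, 27 resistant and 36 untreated tumours had a site in the region.

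Most hit tumours carried a single kept Zbtb20 site. Sites of 1 to 9 reads, which 16 of the hit tumours also held, are not in these counts. There were 32 tumours with 1 kept site, 8 with 2 and 9 with 3 or more. The tumour with the most was resistant 32, with 5 sites of 12 to 56 reads. Resistant 10 and resistant 11 had 4 sites each. Resistant 35 had 3, all on the strand of the gene, with 654, 1100 and 1046 reads. Resistant 48 had 3, with 46, 786 and 2782 reads, and the latter is the highest read count at any Zbtb20 site. Among untreated tumours, untreated 5 had 4 sites, all against the gene, and untreated 22 had 4 sites, all on its strand. In untreated 33, with 3 sites, reads were 136, 142 and 462. Resistant 35 and resistant 48 between them held all 5 sites of 500 or more reads in the resistant group, and both had large libraries, of 719978 and 683360 reads. The untreated group had 2 such sites, of 789 reads in untreated 56 and 577 reads in untreated 1.

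Few Zbtb20 sites were among the most-read sites of their library. The most-read Zbtb20 site of a hit tumour had from 10 to 2782 reads with a median of 72 in resistant tumours, and from 10 to 789 with a median of 62 in untreated tumours. Its rank by reads in the library ran from 18 to 1038 with a median of 200 in resistant tumours, and from 18 to 1866 with a median of 348 in untreated tumours. It was among the 100 most-read sites in 6 resistant and 6 untreated tumours, and among the 20 most-read in 1 of each, resistant 48 and untreated 1. As a share of library reads the median was 0.0484% in resistant tumours, from 0.0110 to 0.407%, and 0.0925% in untreated tumours, from 0.00685 to 0.607%. The highest share was that of untreated 60, where 165 reads placed its site 58th in a library of 27192 reads. At least 0.1% of reads fell on the site in 8 resistant and 12 untreated tumours. The ranks of the groups overlapped, and the order of the medians differs between rank or reads and share of reads. At the threshold itself, 3 tumours (untreated 18, untreated 38 and resistant 30) counted as hit with exactly 10 reads, while the 9 reads of untreated 3 at 565 kb fell just short.

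**Figure D3:**
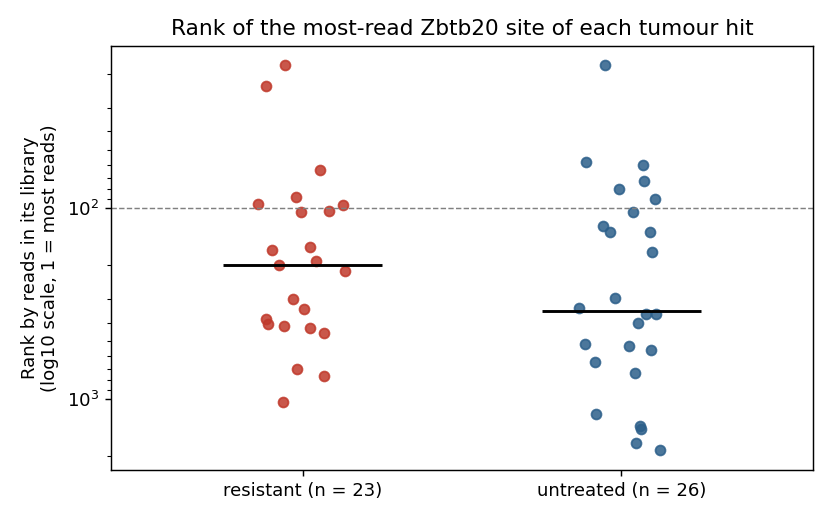
Rank by reads, on a log10 axis where 1 is the most-read site of the library, of the most-read Zbtb20 site in each hit tumour of either group. Points are tumours, black bars are medians (200 resistant, 348 untreated) and the dashed line is rank 100, above which 6 tumours of each group lie.

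**Figure D4:**
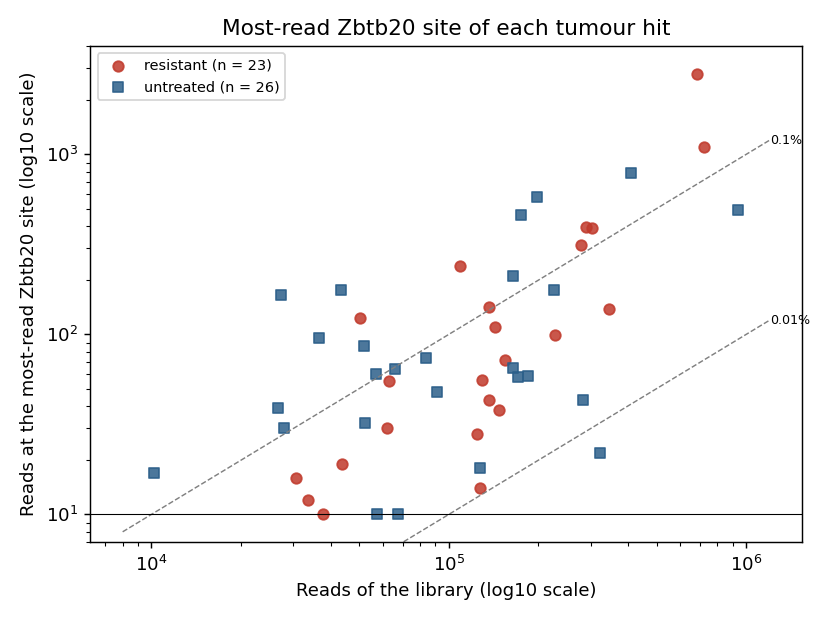
Reads at the most-read Zbtb20 site against reads of the whole library, both on log10 axes, for 23 resistant and 26 untreated hit tumours. Dashed lines mark 0.01% and 0.1% of the library and the solid line the minimum of 10 reads. The sites with the most reads lie in large libraries, and 8 resistant and 12 untreated tumours lie at or above 0.1%.

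Zbtb20 was hit in more tumours than any other region of like length outside chromosome 10. Long regions offer more targets, so it was set beside the 100 other gene regions outside chromosome 10 of like length (at least 0.75 times as long as Zbtb20 and longer by no more than the same ratio), which were hit in a median of 21 tumours and at most 43, against 49 for Zbtb20. Among those with the most tumours were Pard3b (19 resistant, 24 untreated) and Adgrl3 (11 and 31), which encode a cell polarity protein and an adhesion receptor. Per length Zbtb20 held 94.9 kept sites per Mb, against a median of 31.6 among the 100, of which 1 held more. Of all 12556 other gene regions outside chromosome 10, whatever their length, 6 were hit in more tumours and 1 in as many. Per Mb, 2401 of the 12556 held more kept sites than Zbtb20. In the untreated group alone, 2 of the 100 regions of like length had a higher percent hit than Zbtb20 and 2 the same, and in the resistant group none had a higher one. These places in the order are descriptions, since the gene was chosen for its hits.

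**Figure D5:**
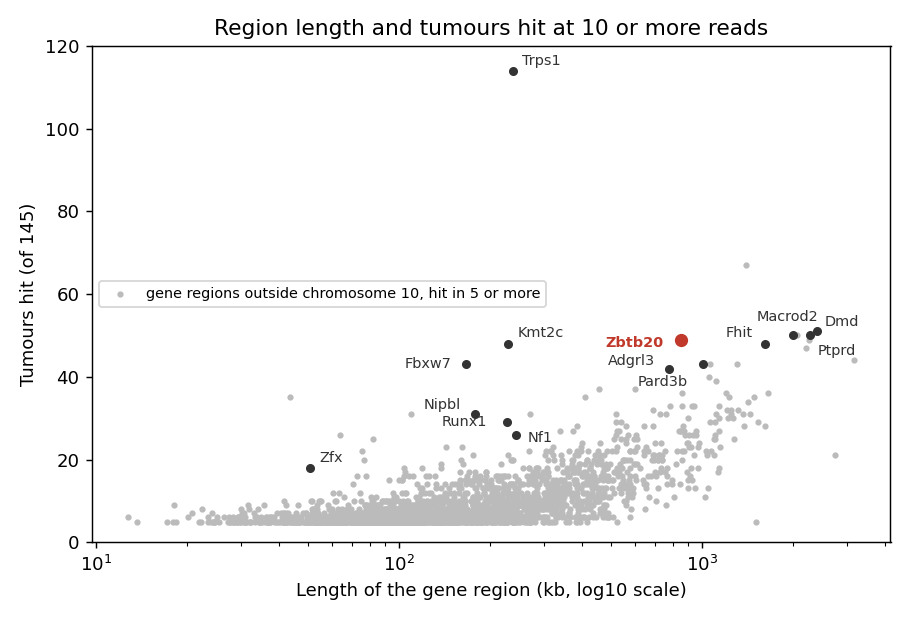
Length of each gene region in kb (log10 axis) against the number of tumours hit at 10 or more reads, for regions outside chromosome 10 hit in 5 or more tumours. Zbtb20, with 49 tumours, lies above every region of like length, while Trps1, with 114, and Kmt2c, with 48, reach high numbers in shorter regions.

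The sites around the gene were fewer. An interval of the same length just before the region (chr16:42020551-42873892) held 24 kept sites in 5 resistant and 15 untreated tumours. The interval just after it (chr16:43727235-44580576) held 38 in 9 resistant and 18 untreated tumours, against 81 in 23 and 26 tumours inside. Of sites with any reads, 63.3% reached 10 reads inside the region, 41.4% before it and 50.7% after it, and 54.2% did so in the series as a whole. Of the nearest gene regions that do not overlap Zbtb20, Gap43, which encodes a growth protein of neurons, was hit in 2 tumours, both untreated, and Drd3, a dopamine receptor gene, in 0. The median over all gene regions was 2. The overlapping region of 4932412D23Rik was hit in 3 resistant and 2 untreated tumours.

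The relative of Zbtb20 with the most hits was Zbtb2 on chromosome 10, hit in 10 tumours, and outside that chromosome the highest number was 7. Of 47 BTB zinc finger genes listed, 31 had a gene region and 27 were hit, with a median of 2 tumours over the 31, which is also the median of all gene regions. The 5 hit in at least 5 tumours were Zbtb2 (4 resistant, 6 untreated), Zbtb7c (5 and 2), Zbtb16 (3 and 4), Zbtb10 (1 and 5) and Zbtb38 (1 and 4). Their regions were shorter, with a median of 25.3 kb over the list. ZBTB16 is known as PLZF, the repressor fused to the retinoic acid receptor in a leukaemia. In a Fisher exact test of tumours hit in either group, adjusted by Benjamini-Hochberg over 2558 regions, 0 regions passed in either direction (0%), so no member of the list passed. Before adjustment 60 regions (2.35%) had a p under 0.05 with a higher share in resistant tumours and 17 (0.665%) with a lower one. The Fisher test took tumours as independent, which tumours of 1 mouse are not. With mice counted in place of tumours, 280 of 2427 regions had an unadjusted p under 0.05 and 0 passed after adjustment.

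Genes of prolactin and mammary hormone signalling were hit in both groups, and none passed that test. Of 17 listed, 12 had a gene region, 10 were hit, and 5 were hit in at least 5 tumours. The median was 2 tumours, as over all gene regions, of which 11111 of 13391 were hit and 2558 were hit in at least 5 tumours. Esr1, the estrogen receptor gene, which lies on chromosome 10, was hit in 26 resistant (51.0%) and 48 untreated tumours (51.1%). Prlr, the prolactin receptor gene, was hit in 3 and 7, and Elf5, a transcription factor of milk-producing cells downstream of it, in 3 and 4. Igf1, which encodes a growth factor, was hit in 3 and 9 tumours and its receptor gene Igf1r in 4 and 8. Of the 10 tumours hit in Prlr, 2 were also hit in Zbtb20, both untreated.

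Many of the tumours hit in Zbtb20 were also hit in other recurrent or long regions. The likeness of 2 genes was measured over all tumours by the Jaccard index, the number of tumours hit in both divided by the number hit in either. Outside chromosomes 10 and 16, the highest index was that of Kmt2c, a histone methyltransferase gene, at 0.426, with 29 tumours hit in both (59.2% of the Zbtb20 tumours and 60.4% of the Kmt2c tumours), 17 resistant and 12 untreated. The next were Macrod2 and Ptprd at 0.375 each, Dmd at 0.370 and Fhit at 0.366. These 4 have regions of 1614 to 2392 kb, longer than that of Zbtb20. All 5 genes were hit in 48 to 51 tumours, near the 49 of Zbtb20, and the index favours genes hit in like numbers. Of 6 other genes that recur in these data, chosen from earlier results on them, Trps1, a repressor gene, was hit together with Zbtb20 in 42 tumours (85.7% of the Zbtb20 tumours), but it was hit in 114 tumours in all. Nipbl, a cohesin loader gene, was hit in 20 of the 49 tumours and Fbxw7, a ubiquitin ligase gene, in 19. Nf1, a negative regulator of RAS, was hit in 15, Runx1, a transcription factor gene, in 14 and Zfx, another, in 9. Of all tumours, 33.8% were hit in Zbtb20. Among tumours hit in these 6 genes the share was 64.5% for Nipbl, 57.7% for Nf1 and 50% for Zfx. It was 48.3% for Runx1, 44.2% for Fbxw7 and 36.8% for Trps1. The tumours hit in Zbtb20 also had the longer site lists given above, and no overlap was tested.

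Read ranks were also set beside those of some of these genes. The most-read site was among the 100 most-read in 24.5% of the tumours hit in Zbtb20, 74.6% of those hit in Trps1, 50% for Zfx, 41.7% for Kmt2c and 30.8% for Nf1. For the long regions Ptprd, Pard3b, Dmd, Macrod2, Adgrl3 and Fhit it was 30%, 23.3%, 21.6%, 20%, 9.52% and 8.33%. The median best rank was 299 for Zbtb20, 34.5 for Trps1, 205 for Kmt2c, 401 for Pard3b and 351 for Fhit. It was 270.5 for Ptprd, 290.5 for Adgrl3, 299 for Dmd and 312 for Macrod2. For Nipbl, Fbxw7 and Runx1 the share was 35.5%, 30.2% and 31.03%. Their median best ranks were 172, 167 and 258, with 197.5 for Nf1 and 108 for Zfx. On both measures Zbtb20 stood behind Ptprd and all the recurrent genes named, which were Trps1, Kmt2c, Zfx, Nf1, Nipbl, Fbxw7 and Runx1. Among the long regions it stood ahead of Pard3b, Macrod2 and Fhit. Dmd had the same median rank with a lower share, and Adgrl3 a better rank with a lower share. These are descriptions with no test.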

How the data were processed

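Genomic DNA of tumours was sheared, splinkerette PCR enriched fragments that held the 5' transposon arm, and 4 library pools were sequenced, per the labels' protocols. The deposited site table gives read counts per site and library as whole numbers that the authors left unscaled, as far as the values show. In a second table the authors give, per gene region and group, counts of insertions, the percent of tumours with an insertion and a score, the signed -log10 p-value named in the file headers. Per the submitters' processing notes coordinates are on mm10. Aligner, site caller and filters are not given in the sources used here. A further 725 per-library columns of 5 other kinds were not used.

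Groups came from the treatment labels and mice from the titles, which name 48 mice where the labels state 53. Reads were not scaled for depth, so deeper libraries reach 10 reads more easily. The gene's strand and the promoter came from RefSeq tables, and the 8 bases of 1037 of 1037 sites in RefSeq promoters matched the RefSeq sequence at the deposited position and strand. Kept sites were compared between groups by permutations of the treatment label over mice. Within tumours, sites of 10 or more reads were compared with sites of 1 to 9 reads by sign flips over mice. Both were 2-sided with 100000 resamples, with Benjamini-Hochberg adjustment over 4 tests. Fisher exact tests covered 2558 regions hit in at least 5 tumours and exact binomial tests 725 hit in at least 10, with a threshold of 0.05. Intervals are Clopper-Pearson at 95% and take each tumour, mouse or site counted as independent. Named genes were Zbtb20, its neighbours, the 3 most-hit regions of like length (1 is not reported here), the 5 with the highest Jaccard index, listed genes hit in at least 5 tumours, and recurrent genes of the series. The members, lists and rules were chosen with earlier results of these data known. The tests were tested on simulated data with large planted differences. Differences as small as those of Zbtb20 were not simulated. Python 3.11.15, numpy 2.4.6, scipy 1.17.1, pandas 2.3.3 and matplotlib 3.10.9 were used.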

Additional observations from a re-analysis of the deposited data

How the results depend on the processing

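The share of tumours hit depended on how many reads were asked for. It was 19.6% in resistant and 8.51% in untreated tumours at 100 reads. When only the 100 most-read sites assigned to each tumour counted, it was 15.7% and 7.45%. The untreated share was 18.1% when positions with reads in more than 1 tumour were left out, and 41% with the TgTum and Tgtumor forms alone. With the tgTum and Mouse forms alone the shares were 25% of resistant and 3.03% of untreated tumours. The resistant share was the higher in each of these settings.

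With the 100 most-read sites, the difference in orientation between groups was -5.36 percentage points, and the difference within tumours between sites with more and fewer reads was 7.14 percentage points. The latter was 6.36 when shared positions stayed in every tumour, and -26.4 when a hit needed 0.02% of library reads (permutation p = 0.0304, unadjusted). Within tumours the position difference was -23.6 kb at 30 reads, -69.4 kb at 100 reads, -79.0 kb with the 100 most-read sites and -3.47 kb with shared positions kept. The cause of these changes was not tested. The count of gene regions that differed between groups was 0 in 13 other settings and 14 of 2634 with shared positions kept in every tumour.

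Leaving out 1 mouse at a time gave 9.85 to 16.6 percentage points for orientation between groups, -55.4 to -13.9 kb for position between groups, -21.0 to -5.64 percentage points for orientation within tumours, and -0.128 to 62.9 kb for position within tumours. The value of -0.128 kb came without the resistant mouse of resistant 11, 12, 13 and 38. The difference between groups of the 2 comparisons within tumours, an alternative chosen after seeing the data, did not pass (permutation p = 0.341 for orientation and 0.285 for position, 8 tumours a group).

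No paired analysis was possible because replicate numbers were given in accession order and pair no tumours across groups. This holds for resistant against untreated tumours, whereas the comparisons within tumours were paired by tumour. Libraries of few reads limit what can be seen, since a site under 10 reads there was not counted as a hit.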
